A study of Mus musculus with 20 samples.

Results

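The Kruppel-like factors described here are Klf2, Klf3, Klf4, Klf5, Klf6, Klf9, Klf10 and Klf17, 8 genes taken by symbol from a table of raw counts for 25208 mouse genes. All 8 were in the table, and all 8 were among the 16603 genes that passed the filter on low counts. They were followed in 20 Smart-seq2 libraries of preimplantation embryos grown in culture from the zygote, which form 10 groups of 2. P300 siRNA embryos, with the genotype label P300 knockdown, and control embryos, labelled WT, were each taken at 4 stages, which were late 2-cell, 4-cell, early 8-cell and finally late 8-cell. A pair of further groups at the late 8-cell stage carried P300 siRNA together with I1394G or with NaCr and were labelled as rescues of the knockdown. The labels spell out neither name. I1394G has the form of an amino acid substitution, and NaCr was read here as sodium crotonate, a source of the crotonyl groups that the series title refers to. The labels give no mouse strain, no control siRNA and no number of embryos in a library, and do not say that the libraries of a group came from separate cultures, so p-values measure only the spread between these libraries.

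Kruppel-like factors are transcription factors with a shared set of zinc fingers at the C-terminal end, which bind GC boxes and CACCC boxes in DNA. In mouse embryonic stem cells Klf2, Klf4 and Klf5 act together to keep the pluripotent state, and Klf5 is needed in the mouse blastocyst for both trophectoderm and inner cell mass. P300, the product of Ep300, is an acetyltransferase that also transfers other acyl groups to histones and acts as a coactivator for many transcription factors, Kruppel-like factors among them.

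The promoters of Klf4 and Klf17 are shown because these genes differed from their controls in opposite directions at the late 8-cell stage, as given further on. Each line holds the 250 bases before the start of the gene in RefSeq, on build GRCm38.p6 and on the gene's own strand, with capitals for each GC box (GGGCGG) and each CACCC box (CACCC) on either strand. The first lies at chr4:55532476-55532725 and the second at chr4:117765667-117765916, both on the minus strand.
Klf4: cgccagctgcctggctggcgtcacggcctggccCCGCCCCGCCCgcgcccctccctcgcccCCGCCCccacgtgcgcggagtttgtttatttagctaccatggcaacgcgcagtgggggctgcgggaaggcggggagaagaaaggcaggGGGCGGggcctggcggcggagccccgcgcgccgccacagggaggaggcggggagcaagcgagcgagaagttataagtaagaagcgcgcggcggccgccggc
Klf17: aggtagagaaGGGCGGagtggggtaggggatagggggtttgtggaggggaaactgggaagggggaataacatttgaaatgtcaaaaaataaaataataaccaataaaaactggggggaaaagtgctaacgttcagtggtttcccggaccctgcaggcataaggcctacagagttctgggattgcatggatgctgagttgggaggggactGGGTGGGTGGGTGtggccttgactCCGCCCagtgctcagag
Matches that shared bases were counted separately, and the search covered 300 bases, of which 250 lie before the start and 50 after it. Klf4 held 4 GC boxes and 0 CACCC boxes in this window. Klf17 held 2 GC boxes and 3 CACCC boxes. Promoters were found for 6 of the 8 genes, and Klf5 and Klf10 are named only. Klf3 held 6 GC boxes and 5 CACCC boxes, Klf2 held 2 and 1, Klf6 held 1 and 0, and Klf9 held 0 and 1. Of 32851 RefSeq promoters of the same length, 35.7% held a GC box and 57.5% a CACCC box. These matches describe letters in the window and are not binding sites found in these data.

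Depth ran between 3.20 M and 24.8 M counts per library (M, mega), with a median of 11.6 M, and the shallowest library was replicate 1 of the late 8-cell P300 siRNA group. Ep300 checked the siRNA up to the early 8-cell stage. The gene stood between 11.4 and 29.9 CPM in the 6 P300 siRNA libraries of those stages, against 41.5 to 88.4 CPM in the 6 controls. CPM is a gene's counts per 1 M of the library total, after each total was adjusted by edgeR's TMM factor. It therefore differs from a share of the raw total. Among the controls, early 8-cell replicate 2 read 82.9 CPM by its count column, which does not match its second deposited column (next paragraph). At the late 8-cell stage it stood at 13.2 and 16.2 CPM in P300 siRNA libraries, against 15.2 and 22.0 CPM in controls. The groups overlapped there, so directions at that stage rest on the labels. The rescue libraries, labelled as carrying the same siRNA, read 14.8 and 16.2 CPM with I1394G and 11.6 and 12.6 CPM with NaCr, in or below the range of P300 siRNA alone. Markers of the embryo (8 genes) summed to between 2821 and 18347 CPM in every library, and the groups differed. In late 8-cell P300 siRNA libraries they summed to 6149 and 7054 CPM, against 15585 and 16759 CPM in controls. There 7 of the 8 were called lower and 0 higher by edgeR. The 4-cell sums were 8743 and 10407 CPM with P300 siRNA, against 13689 and 16785 CPM in controls. At the late 2-cell stage the sums overlapped. Cumulus and granulosa markers (10 genes) summed to 9.82 and 16.9 CPM in late 8-cell P300 siRNA libraries, against 1.39 and 1.60 CPM in controls. Of the 6 tested, 2 were called higher and 0 lower (Tnfaip6, adjusted p = 0.000964, and Ptx3, adjusted p = 0.0339, by edgeR), with a median log2 difference of 2.76. Tnfaip6 held most of the sum, at 6.90 and 9.39 CPM in P300 siRNA libraries against 0 and 0 CPM in controls. Ptx3 read 0.265 and 1.76 CPM, against 0 and 0 CPM in controls, and Star read 2.12 and 2.57 CPM, against 1.33 and 1.27 CPM. Foxl2, a factor that defines granulosa cells, and Inhba were at 0 in P300 siRNA replicate 1 and both controls and read 0.653 and 1.02 CPM in P300 siRNA replicate 2, while Fshr was at 0 in all 4 libraries. The sum of the 10 markers ran between 2.02 and 3.16 CPM with I1394G and between 2.24 and 2.77 CPM with NaCr. At the late 2-cell stage it ran between 8.52 and 11.4 CPM in controls and between 6.43 and 7.004 CPM with P300 siRNA. There Tnfaip6 averaged 2.72 CPM in controls and 2.08 CPM with P300 siRNA, and Cyp19a1 2.84 and 2.38 CPM. In 4-cell and early 8-cell libraries the sum lay between 0.696 and 3.86 CPM. The part of cumulus and granulosa cells in the late 8-cell results was not tested.

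One library has 2 deposited columns that do not match. Each gene's count was divided by its library's total count and then by its FPKM (fragments per kilobase of transcript, scaled to the library's mapped fragments), wherever the FPKM was at least 0.5. Over the other 19 libraries the SD of this ratio was at most 0.182% of its mean for each of the 8 genes. In control early 8-cell replicate 2 this ratio was off by between 0.584-fold for Klf17 and 6.82-fold for Klf10 among genes at 0.5 FPKM or above. Klf6, with 0.25 FPKM and 4 counts there, lay below that limit and read 0.294-fold. Ep300 in that library stood at 82.9 CPM by its counts, above the 41.5 CPM of control replicate 1. Its FPKM there was 2.53, against 4.11 in control replicate 1 and 1.40 and 1.99 in the early 8-cell P300 siRNA libraries. The early 8-cell check of the siRNA by Ep300 therefore depends in part on the column used. Over 7134 well-covered genes its count column correlated best with control early 8-cell replicate 1 (r = 0.969). Its FPKM column correlated best with P300 siRNA early 8-cell replicate 2 (r = 0.949), and less with control replicate 1 (r = 0.880). The columns do not show which of them belongs to the library. Counts were used for every test, the members' tests and the list counts that involve the early 8-cell controls are also given without that library, and its FPKM values were left out of every comparison between genes.

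**Figure D1:**
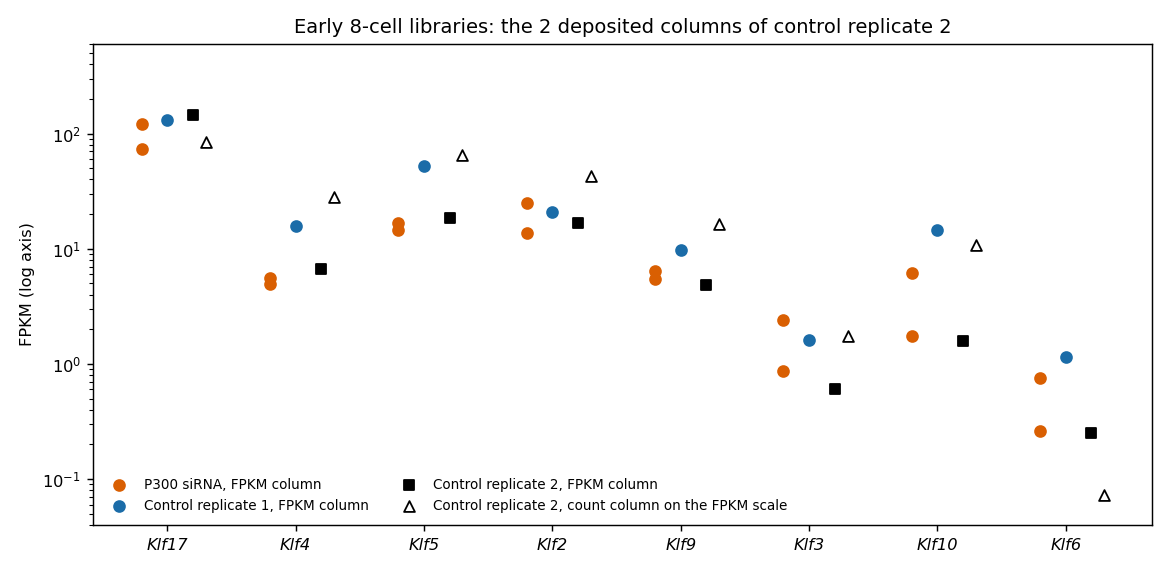
Early 8-cell FPKM of the 8 genes on a log axis, with P300 siRNA libraries in orange, control replicate 1 in blue, and control replicate 2 as a black square (FPKM column) and an open triangle (count column brought to the FPKM scale). The square for Klf5 stands at 18.6 FPKM, close to the P300 siRNA libraries at 14.4 and 16.8 FPKM, while the triangle lies with control replicate 1 at 52.2 FPKM.

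Per transcript length, Klf17 was the most abundant of the 8 genes in 9 of the 10 groups, and late 8-cell controls were the exception. Klf17 encodes a family member expressed in mouse oocytes and early embryos. Its share of the summed FPKM of 17 Kruppel-like factor genes was 57.9% in P300 siRNA embryos and 59.8% in controls at the late 2-cell stage. At the 4-cell stage the share was 51.8% in P300 siRNA embryos and 43.5% in controls, and the libraries ran between 38.5% and 65.1% against 29.6% and 57.3%. At the early 8-cell stage it was 52.9% in P300 siRNA embryos and 44.3% in the 1 control library used. The order of the family parted at the late 8-cell stage. There Klf17 took 28.3% in I1394G embryos, 21.4% in NaCr embryos, 36.8% in P300 siRNA embryos and 5.36% in controls. Klf5 took 19.6% in I1394G embryos, 18.7% in NaCr embryos, 10.9% in P300 siRNA embryos and 39.3% in controls. Klf5 therefore led the control embryos, and the FPKM ranges of Klf17 and Klf5 overlapped in NaCr embryos.

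The summed FPKM of the 17 genes stood at 496 and 522 in P300 siRNA embryos against 495 and 508 in controls at the late 2-cell stage. The sums were 183 and 196 in 4-cell P300 siRNA embryos against 222 and 369 in controls. In early 8-cell embryos they were 173 and 193 with P300 siRNA against 298 in the 1 control library used. At both stages the P300 siRNA libraries lay below the controls, a difference that was not tested. In late 8-cell libraries the sums were 202 and 179 in I1394G embryos, 141 and 170 in NaCr embryos, 161 and 140 in P300 siRNA embryos and 167 and 160 in controls. The ranges of P300 siRNA and control embryos lay close together there, and every late 8-cell sum was below every late 2-cell one.

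**Figure D2:**
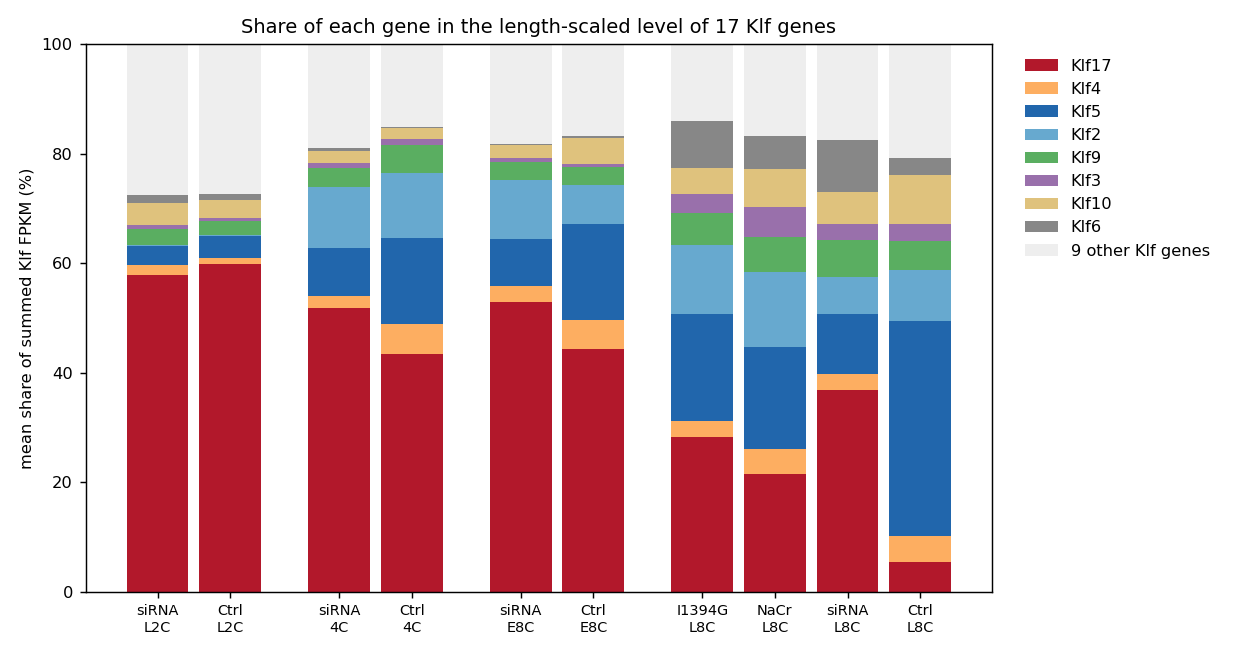
Mean share, in percent, of each gene in the summed FPKM of 17 Kruppel-like factor genes, stacked for each group of 2 libraries (1 library for early 8-cell controls; L2C, late 2-cell; 4C, 4-cell; E8C, early 8-cell; L8C, late 8-cell). Klf17 fills 36.8% of the late 8-cell P300 siRNA column and 5.36% of the control column.

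Below the leading gene, neighbours in the FPKM order were often not separable. In late 8-cell controls Klf5 stood at 64.2 FPKM, apart from Klf2 at 15.2 and Klf10 at 14.7 FPKM, which overlapped. Klf17, Klf9, Klf4, Klf6 and Klf3 followed between 8.81 and 4.91 FPKM, each overlapping its neighbour. In late 8-cell P300 siRNA embryos Klf17 (56.2 FPKM) stood apart from Klf5 (16.4 FPKM) and Klf6 (14.3 FPKM), and Klf9, Klf2 and Klf10 (10.1, 10.1 and 8.66 FPKM) overlapped. At the 4-cell stage Klf2 followed Klf17 in P300 siRNA embryos, at 21.1 FPKM, and overlapped with Klf5 at 16.3 FPKM. In 4-cell controls Klf5 (43.4 FPKM) stood apart from Klf2 (33.2 FPKM), with Klf4 and Klf9 overlapping at 15.1 and 14.5 FPKM. Klf2 was the lowest of the 8 at the late 2-cell stage, at 1.45 FPKM in P300 siRNA embryos and 1.42 FPKM in controls.

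Control embryos give the course of the family over the stages. Between the late 2-cell and 4-cell stages 6 of the 8 genes passed edgeR's quasi-likelihood test, in a comparison where 61.2% of all genes tested did so. Klf2, which stem cells use alongside Klf4 and Klf5, stood at 68.3 and 66.4 CPM in 4-cell controls, against 2.57 and 1.78 CPM in late 2-cell controls (log2 fold change 4.93 ± 0.54, SE, adjusted p = 3.8e-07). Klf4 rose by 1.68 ± 0.31 (adjusted p = 0.000122) and Klf5 by 1.57 ± 0.23 (adjusted p = 1.3e-05). The stem cell trio was thus higher in both 4-cell libraries than in either late 2-cell library.

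Klf6, an activator induced early after stimulation or injury, moved the other way. It stood at 1.34 and 0.550 CPM in 4-cell controls, against 24.5 and 19.1 CPM in late 2-cell controls (-4.65 ± 0.97, adjusted p = 0.000494). Klf10, a repressor induced by TGF-beta, fell by 1.32 ± 0.52 (adjusted p = 0.0353), and lost that call without 4-cell control replicate 2 (-0.64, adjusted p = 0.290) or late 2-cell control replicate 1 (-0.98, adjusted p = 0.194). Klf9, a repressor induced by glucocorticoid and thyroid hormone, rose by 0.61 ± 0.26 (adjusted p = 0.0497) and lost its call without 4-cell control replicate 2 (0.43), late 2-cell control replicate 1 (0.80) or replicate 2 (0.45), and with DESeq2's size factors (0.37, adjusted p = 0.242).

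Between the 4-cell and early 8-cell stages 0 of the 8 passed with edgeR or DESeq2, where 1.13% of all genes passed edgeR, and 2 had an unadjusted p under 0.05 (Klf5 and Klf10). Between the early and late 8-cell stages 4 of the 8 passed, against 26.2% of all genes. Klf17 stood at 47.8 and 26.2 CPM in late 8-cell controls, against 547 and 355 CPM in early 8-cell controls (-3.61 ± 0.50, adjusted p = 8.1e-05). Its late 8-cell libraries were both far below its early ones, and the difference was -3.89 without early 8-cell control replicate 2 (adjusted p = 0.000268). Without that library 0 of the 8 passed between the 4-cell and early 8-cell stages, and Klf17 alone between the early and late 8-cell stages.

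Klf4 fell by 1.45 ± 0.30 (adjusted p = 0.00188) over the same interval, but by 0.98 without early 8-cell control replicate 2 (adjusted p = 0.0516) and by 0.42 with that library rebuilt from its FPKM column (adjusted p = 0.452). Klf6 rose by 3.09 ± 0.87 (adjusted p = 0.0136), with 9.96 and 40.4 CPM in late 8-cell controls against 5.61 and 0.359 CPM in early 8-cell controls. That call was lost without early 8-cell control replicate 2 (2.16, adjusted p = 0.115) or late 8-cell control replicate 2 (1.76, adjusted p = 0.232). Klf3, a repressor that recruits CtBP corepressors, rose by 1.56 ± 0.43 (adjusted p = 0.0126) and missed the threshold without early 8-cell control replicate 1 (1.49), early 8-cell control replicate 2 (1.61) or late 8-cell control replicate 1 (1.43). Klf5 did not pass (0.15 ± 0.22, adjusted p = 0.679) and kept a level of 135 and 124 CPM in late 8-cell controls, against 104 and 130 CPM in early 8-cell controls (0.31 without early 8-cell control replicate 2, adjusted p = 0.504).

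**Figure D3:**
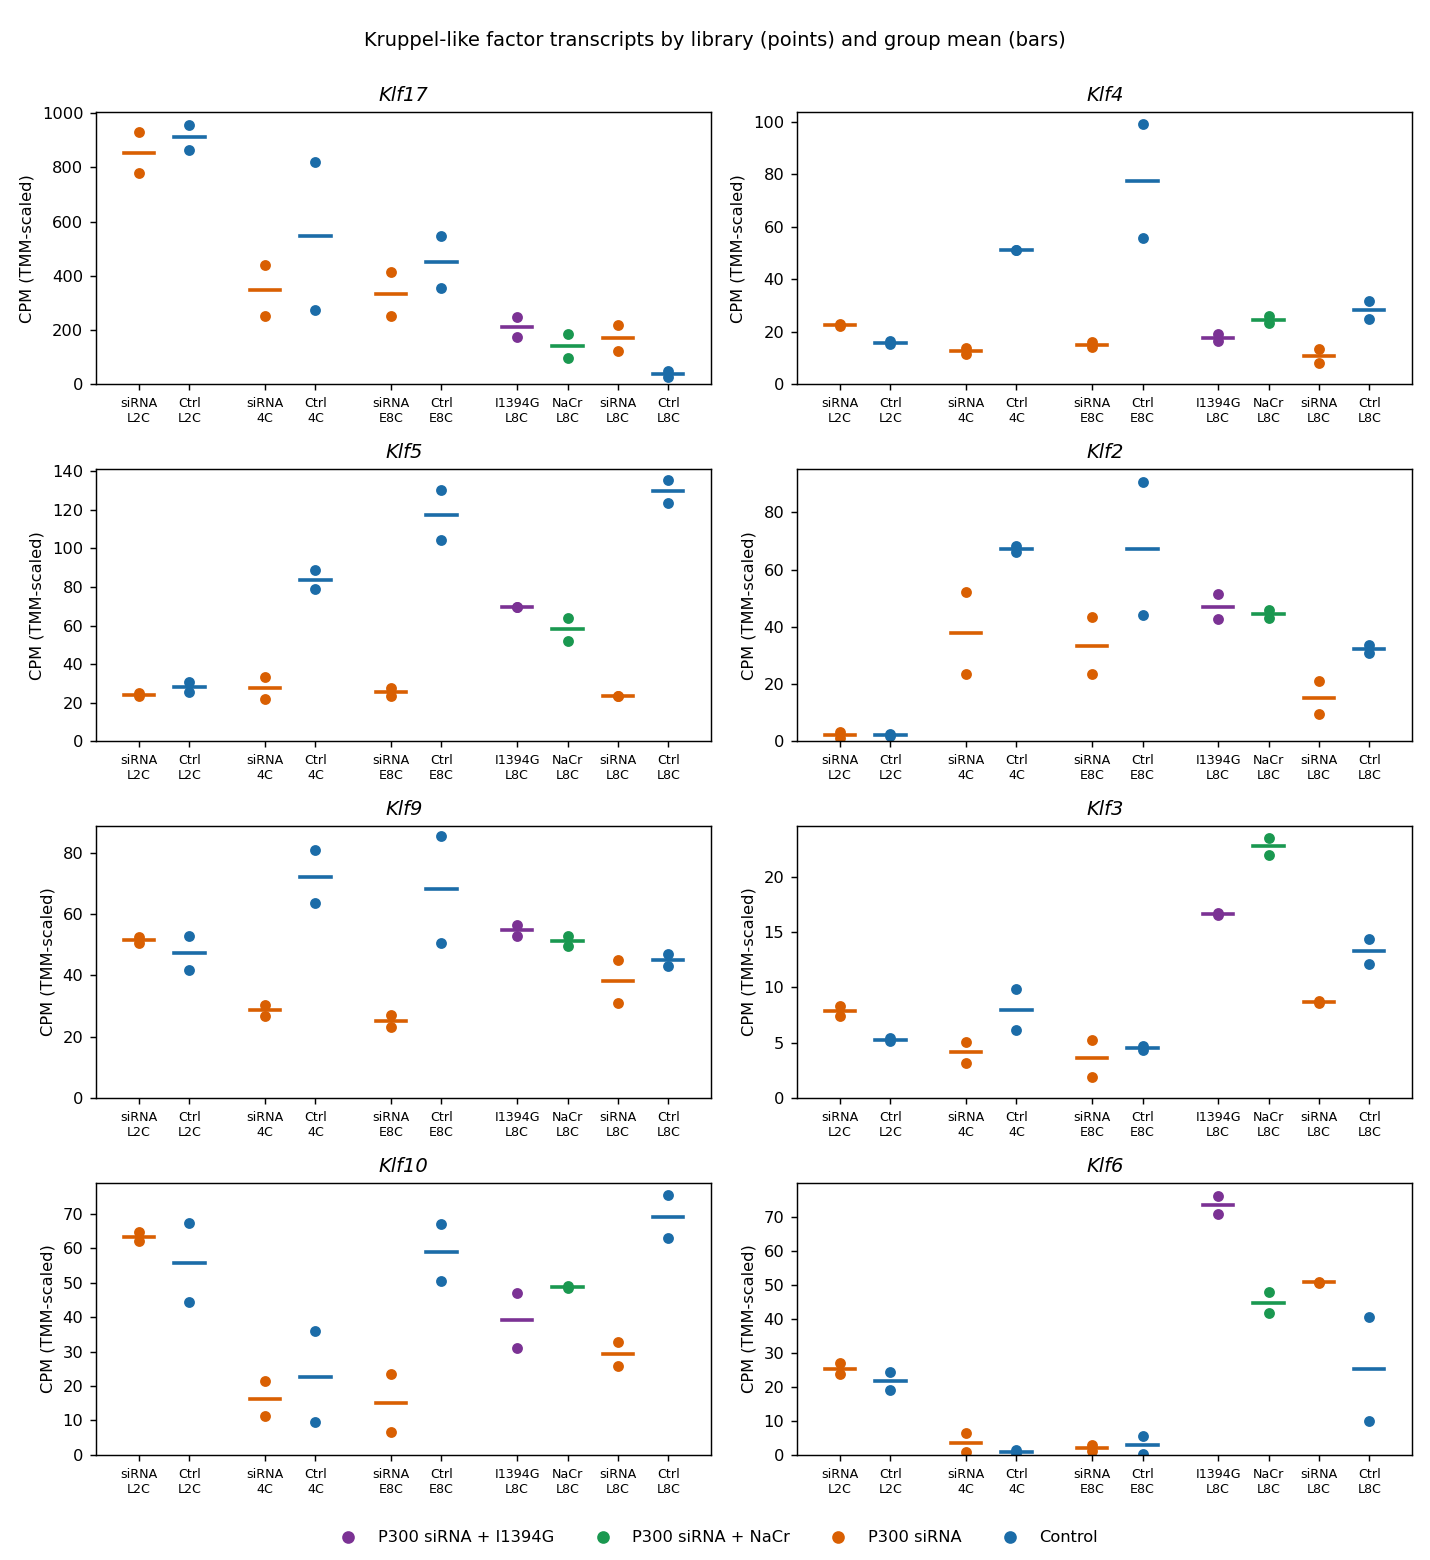
CPM of each of the 8 genes in every library (points) with the group mean (bars), on a linear axis that starts at 0 in each panel; L2C is the late 2-cell, 4C the 4-cell, E8C the early 8-cell and L8C the late 8-cell stage. Klf5 stays between 21.9 and 33.3 CPM in all 8 P300 siRNA libraries without a rescue, while every control from the 4-cell stage on is at 78.8 CPM or above.

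Klf5 was lower in P300 siRNA embryos than in controls at every stage after the late 2-cell stage. Klf5 stood at 33.3 and 21.9 CPM in 4-cell P300 siRNA libraries, against 88.8 and 78.8 CPM in controls (-1.61 ± 0.23, adjusted p = 0.000307). In early 8-cell embryos it stood at 27.7 and 23.4 CPM in P300 siRNA libraries, against 104 and 130 CPM in controls (-2.20 ± 0.24, adjusted p = 1.6e-05). In late 8-cell embryos it stood at 23.6 and 23.7 CPM in P300 siRNA libraries, against 135 and 124 CPM in controls (-2.45 ± 0.24, adjusted p = 4.5e-06). Every P300 siRNA library lay below every control of its stage from the 4-cell stage on. In late 2-cell embryos Klf5 read 23.3 and 24.8 CPM in P300 siRNA libraries against 30.9 and 25.6 CPM in controls and did not pass (-0.23 ± 0.23, adjusted p = 1). These are whole-embryo levels, in which fewer cells that express a gene and less RNA per cell cannot be told apart.

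Klf4, a reprogramming factor of stem cells, showed the same kind of difference. It stood at 13.8 and 11.6 CPM in 4-cell P300 siRNA libraries, against 51.0 and 51.4 CPM in controls (-2.01 ± 0.31, adjusted p = 0.000503). In early 8-cell embryos the values were 16.1 and 14.2 CPM in P300 siRNA libraries, against 55.7 and 99.1 CPM in controls (-2.35 ± 0.31, adjusted p = 8.8e-05). In late 8-cell embryos they were 7.96 and 13.6 CPM against 31.6 and 25.0 CPM in controls (-1.35 ± 0.31, adjusted p = 0.00379). The groups did not overlap at these 3 stages, and limma on log2(FPKM + 1) gave -0.81 at the late 8-cell stage (adjusted p = 0.0639). At the late 2-cell stage both P300 siRNA libraries were above both controls, at 22.2 and 22.9 CPM against 15.4 and 16.5 CPM, without a call (0.50 ± 0.30, adjusted p = 1).

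Klf2 was lower on average over the 4 stages (-0.76 ± 0.24, adjusted p = 0.0237) and passed at none of them. It stood at 52.2 and 23.5 CPM in 4-cell P300 siRNA libraries, against 68.3 and 66.4 CPM in controls (-0.84 ± 0.44, adjusted p = 0.211). In late 8-cell embryos it stood at 9.56 and 21.0 CPM, against 33.7 and 30.7 CPM in controls (-1.02 ± 0.45, adjusted p = 0.0998). The groups did not overlap at either stage, but the 2 P300 siRNA libraries of a stage lay far apart. The average call was lost without any 1 of 5 libraries, which were early 8-cell control replicate 2 (-0.62), late 2-cell control replicate 1 (-0.68), and replicate 2 of the 4-cell (-0.64), early 8-cell (-0.67) and late 2-cell (-0.60) P300 siRNA groups.

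Klf17 was higher in P300 siRNA embryos at the late 8-cell stage, where its level in controls had dropped. It stood at 218 and 122 CPM in P300 siRNA libraries, against 47.8 and 26.2 CPM in controls (2.19 ± 0.47, adjusted p = 0.00252). Both P300 siRNA libraries lay above both controls, and without control replicate 2 the difference was 1.81 (adjusted p = 0.0505). At the earlier stages the groups overlapped or differed by less than their spread, with 779 and 931 CPM against 864 and 957 CPM in controls at the late 2-cell stage, 254 and 442 CPM against 274 and 819 CPM at the 4-cell stage, and 254 and 414 CPM against 547 and 355 CPM at the early 8-cell stage. None of these 3 passed (adjusted p = 1, 0.349 and 0.553).

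Of the repressors, Klf9 was lower at 2 stages. It stood at 30.4 and 26.8 CPM in 4-cell P300 siRNA libraries, against 63.5 and 80.9 CPM in controls (-1.34 ± 0.27, adjusted p = 0.0033). In early 8-cell embryos it stood at 27.2 and 23.2 CPM, against 50.6 and 85.6 CPM in controls (-1.43 ± 0.27, adjusted p = 0.00143). The groups were apart at both stages by counts. By its FPKM column early 8-cell control replicate 2 read 4.82 FPKM, below the P300 siRNA libraries at 6.36 and 5.49 FPKM. Control replicate 1 read 9.77 FPKM there. At the late 8-cell stage the groups overlapped, at 45.1 and 30.9 CPM against 43.0 and 47.0 CPM in controls (-0.26 ± 0.26, adjusted p = 0.494).

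Klf10 passed at the early 8-cell stage, at 23.5 and 6.66 CPM in P300 siRNA libraries against 67.1 and 50.5 CPM in controls (-1.95 ± 0.53, adjusted p = 0.0172). By its FPKM column control replicate 2 read 1.59 FPKM, below the P300 siRNA libraries at 6.11 and 1.76 FPKM. The call was lost without control replicate 1 (-1.75, adjusted p = 0.0678) or P300 siRNA replicate 2 (-1.32, adjusted p = 0.146). Its average over the 4 stages passed (-0.87 ± 0.26, adjusted p = 0.0156). In late 8-cell embryos its values were 32.7 and 25.8 CPM in P300 siRNA libraries against 62.8 and 75.5 CPM in controls, without overlap and without a call (-1.25 ± 0.52, adjusted p = 0.0801). Klf3 passed at no stage, with log2 differences between -0.92 and 0.58.

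Klf6 also passed at no stage. In late 8-cell embryos its values were 50.4 and 50.9 CPM in P300 siRNA libraries, against 9.96 and 40.4 CPM in controls (1.01 ± 0.76, adjusted p = 0.345). The controls lay far apart, and both were below both P300 siRNA libraries.

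**Figure D4:**
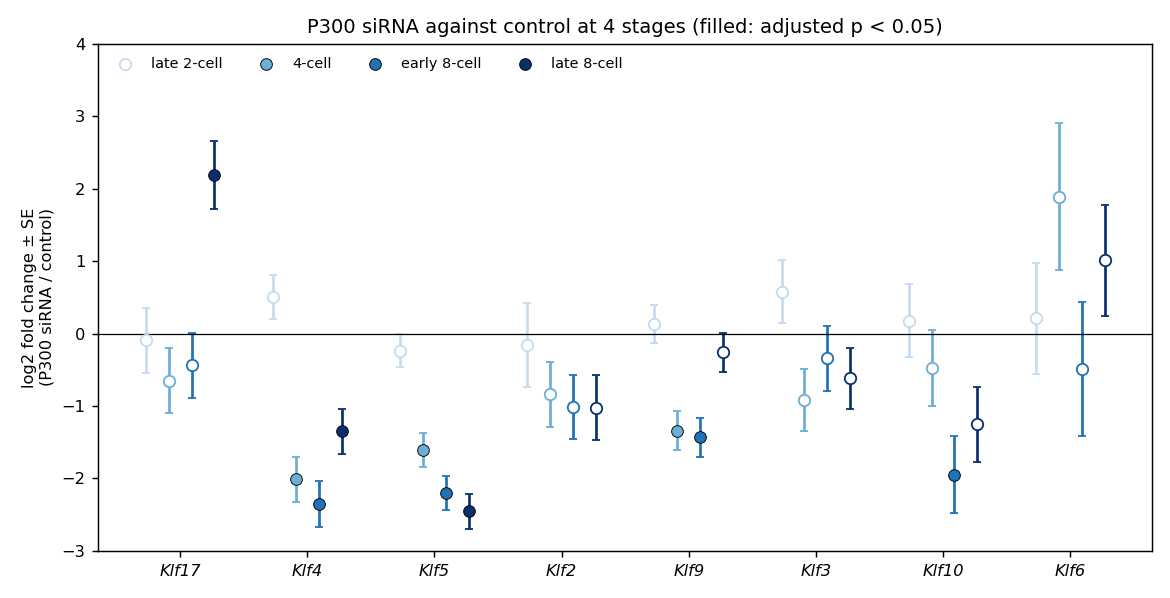
Log2 fold change of P300 siRNA over control with its SE for the 8 genes at 4 stages, in darker blue for later stages; filled points passed at an adjusted p under 0.05. Klf5 passed from the 4-cell stage on at -1.61, -2.20 and -2.45, and Klf17 rose at the late 8-cell stage alone, by 2.19.

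Counted over the family, 0 of the 8 passed at the late 2-cell stage with edgeR, where 0.00602% of all genes did; Ep300 itself did not pass there over all genes. By an unadjusted p under 0.05 and by DESeq2 this count was also 0, where 689 and 33 of all genes passed, in that order. At the 4-cell stage 3 of the 8 fell and 0 rose, against 15% of all genes called, 7.25% lower and 7.77% higher. At the early 8-cell stage 4 fell and 0 rose, against 16.5% called, 8.3% lower and 8.21% higher. At the late 8-cell stage 2 fell and 1 rose, against 28% called, 14.3% lower and 13.6% higher. Over the average of the 4 stages 5 fell and 0 rose, against 30.7% called, 14.8% lower and 15.9% higher. The median log2 difference of the 8 genes was 0.15, -0.88, -1.22 and -0.82 at the 4 stages in order, beside -0.04, 0.00, 0.04 and 0.06 over all genes tested.

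The early 8-cell calls depended on which column stands for control replicate 2. With the library left out, all 4 calls held, with Klf5 at -2.03 (adjusted p = 0.000292), Klf4 at -1.88 (adjusted p = 0.00204), Klf9 at -1.0 (adjusted p = 0.0381) and Klf10 at -2.15 (adjusted p = 0.0406), where 7.51% of all genes passed. The other members still did not pass, with Klf17 at -0.71, Klf2 at -0.40, Klf3 at -0.29 and Klf6 at -1.42. With its counts rebuilt from its FPKM column, 0 of the 8 and 0.271% of all genes passed, and Klf5 stood at -1.41 (adjusted p = 0.112), Klf4 at -1.32 (adjusted p = 0.131), Klf9 at -0.51 (adjusted p = 0.439) and Klf10 at -1.27 (adjusted p = 0.415). The 4-cell calls of Klf4, Klf5 and Klf9 held without each library in turn. They missed the threshold when only the 4 libraries compared were fitted, at -2.0 (adjusted p = 0.065), -1.60 (adjusted p = 0.0868) and -1.33 (adjusted p = 0.108), and in that fit 0.464% of all genes passed.

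The siRNA differences were not the same at every stage. Tested jointly over the 4 stages, 4 of the 8 differed between stages with edgeR, against 16.3% of all genes, namely Klf5 (adjusted p = 0.00149), Klf4 (adjusted p = 0.0017), Klf9 (adjusted p = 0.0137) and Klf17 (adjusted p = 0.0176). All 4 also passed without early 8-cell control replicate 2 (adjusted p = 0.0024, 0.00257, 0.0223 and 0.0175, in the same order). The 4-cell difference minus the late 2-cell difference was -2.52 ± 0.43 for Klf4 (adjusted p = 0.00562), -1.38 ± 0.33 for Klf5 (adjusted p = 0.0253) and -1.47 ± 0.37 for Klf9 (adjusted p = 0.0347), 3 of the 8 against 4.28% of all genes. Klf4 kept this call without each library in turn. Klf5 lost it without any 1 of 5 of the 8 libraries, with values between -1.10 and -1.52, and Klf9 without any 1 of 7, with values between -1.28 and -1.65.

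For the early 8-cell difference minus the 4-cell difference, 0 of the 8 and 0% of all genes passed edgeR. At an unadjusted p under 0.05 there were 0 of the 8 and 1265 genes in all, and DESeq2 called 0 of the 8 and 39 genes. The late 8-cell difference minus the early 8-cell difference passed for Klf17 alone (2.63 ± 0.65, adjusted p = 0.0230), 1 of the 8 against 6.63% of all genes, and stood at 2.90 without early 8-cell control replicate 2 (adjusted p = 0.0310). It missed the threshold without early 8-cell control replicate 1 (2.28), late 8-cell control replicate 2 (2.25), early 8-cell P300 siRNA replicate 1 (2.31) or late 8-cell P300 siRNA replicate 1 (2.15). Klf9 stood at 1.17 ± 0.37 (adjusted p = 0.0640) in this comparison.

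In the rescue groups Klf5 was again higher than with P300 siRNA alone. It stood at 69.8 and 69.7 CPM in I1394G libraries and 52.2 and 63.8 CPM in NaCr libraries, against 23.6 and 23.7 CPM in P300 siRNA libraries. The log2 difference was 1.56 ± 0.23 with I1394G (adjusted p = 0.00086) and 1.29 ± 0.23 with NaCr (adjusted p = 0.00141). All 4 rescue libraries lay above both P300 siRNA libraries and below both controls, which read 135 and 124 CPM. Both calls held without each library in turn, and limma on log2(FPKM + 1) gave 0.79 for NaCr (adjusted p = 0.108).

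Klf2 stood at 51.4 and 42.8 CPM in I1394G libraries and 43.0 and 45.8 CPM in NaCr libraries, against 9.56 and 21.0 CPM in P300 siRNA libraries. It passed with I1394G (1.57 ± 0.46, adjusted p = 0.0344) and with NaCr (1.48 ± 0.46, adjusted p = 0.0353), and all 4 rescue libraries also lay above the controls at 33.7 and 30.7 CPM. The I1394G call was lost without P300 siRNA replicate 1 (1.17), I1394G replicate 1 (1.44) or I1394G replicate 2 (1.71). The NaCr call was lost without P300 siRNA replicate 1 (1.09), NaCr replicate 1 (1.53) or NaCr replicate 2 (1.45).

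Klf4 stood at 19.1 and 16.6 CPM in I1394G libraries and 23.3 and 26.1 CPM in NaCr libraries, against 7.96 and 13.6 CPM in P300 siRNA libraries. It passed with NaCr (1.15 ± 0.31, adjusted p = 0.0176) and not with I1394G (0.68 ± 0.31, adjusted p = 0.158). Without P300 siRNA replicate 1 (0.87), NaCr replicate 1 (1.23) or NaCr replicate 2 (1.08) the NaCr call was lost. Klf3 stood at 16.7 and 16.5 CPM in I1394G libraries and 22.0 and 23.5 CPM in NaCr libraries, against 8.76 and 8.58 CPM in P300 siRNA libraries. It passed with NaCr (1.39 ± 0.43, adjusted p = 0.0344), a call lost without any 1 of the 4 libraries (1.35 to 1.44), and not with I1394G (0.94 ± 0.42, adjusted p = 0.158). For both genes every rescue library lay above both P300 siRNA libraries. Klf9 and Klf10 passed in neither rescue group against P300 siRNA. Klf9 read 0.54 ± 0.26 with I1394G (adjusted p = 0.199 by edgeR) and 0.44 ± 0.27 with NaCr (adjusted p = 0.268). Klf10 read 0.43 ± 0.51 (adjusted p = 0.642) and 0.75 ± 0.52 (adjusted p = 0.342), in the same order.

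Klf17 did not come down to control levels in either rescue group. It stood at 248 and 176 CPM in I1394G libraries and 96.1 and 187 CPM in NaCr libraries, against 218 and 122 CPM in P300 siRNA libraries and 47.8 and 26.2 CPM in controls. Against P300 siRNA alone it read 0.33 ± 0.45 with I1394G (adjusted p = 0.691) and -0.26 ± 0.45 with NaCr (adjusted p = 0.742). Both rescue groups were above controls without overlap, by 2.52 ± 0.48 for I1394G (adjusted p = 0.00718) and 1.93 ± 0.47 for NaCr (adjusted p = 0.0439). The I1394G call was lost without control replicate 2 (2.15) or I1394G replicate 1 (2.25), and the NaCr call without control replicate 1 (2.44), control replicate 2 (1.56) or NaCr replicate 2 (1.37). Klf6 read 76.2 and 70.8 CPM with I1394G and 47.7 and 41.7 CPM with NaCr, against 50.4 and 50.9 CPM with P300 siRNA alone. Every rescue library lay above both controls, at 9.96 and 40.4 CPM. Against P300 siRNA, Klf6 did not pass with I1394G (0.54 ± 0.76, adjusted p = 0.699 by edgeR) or NaCr (-0.18 ± 0.76, adjusted p = 0.912). Nor did it pass against controls (adjusted p = 0.319 and 0.715).

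Counted over the family, 2 of the 8 rose with I1394G against P300 siRNA (10.8% of all genes called, 6.19% higher and 4.58% lower), and 4 rose with NaCr (15.3% called, 8.77% higher and 6.57% lower), with 0 falls in either. The median log2 difference of the 8 genes was 0.61 with I1394G and 0.95 with NaCr, beside -0.07 and -0.13 over all genes. Against controls, 2 of the 8 passed with I1394G (3.17% of all genes) and 2 with NaCr (1.57%), which were Klf17, higher, and Klf5, lower, in each. Klf5 stood at -0.89 ± 0.22 with I1394G (adjusted p = 0.0372) and -1.16 ± 0.23 with NaCr (adjusted p = 0.0141), and missed the threshold without any 1 of the 4 libraries in both comparisons, with values between -0.82 and -0.96 for I1394G and between -1.03 and -1.32 for NaCr. Between I1394G and NaCr 0 of the 8 and 0% of all genes passed edgeR, with log2 differences of the 8 between -0.47 and 0.72. At an unadjusted p under 0.05 there were 0 of the 8 and 323 genes in all, and DESeq2 called 0 genes. These comparisons share the P300 siRNA or the control libraries, so that their values are not independent of each other.

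**Figure D5:**
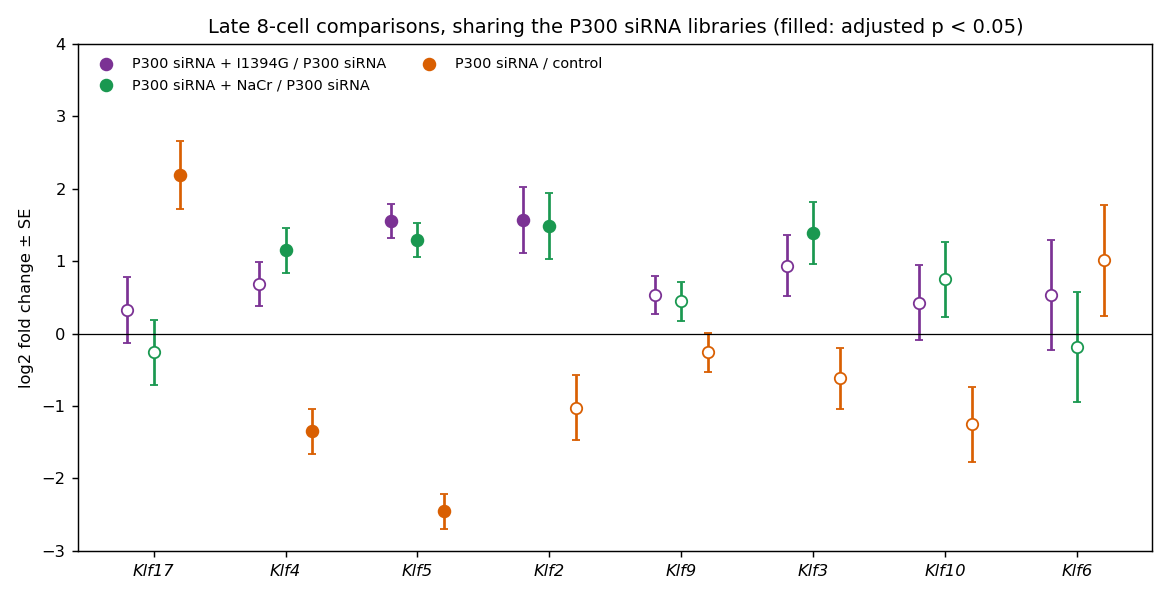
Late 8-cell log2 fold changes with SE for the 8 genes, for I1394G over P300 siRNA (purple), NaCr over P300 siRNA (green) and P300 siRNA over control (orange); filled points passed at an adjusted p under 0.05. Klf5 stands at 1.56 and 1.29 in the rescues beside -2.45 for P300 siRNA over control, while Klf17 stands at 0.33 and -0.26 beside 2.19.

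Other Kruppel-like factor genes gave a mixed picture. Beside the counts of this and the following lists, edgeR called 15%, 16.5% and 28% of all genes at the 4-cell, early and late 8-cell stages. Lower were 7.25%, 8.3% and 14.3%, and higher 7.77%, 8.21% and 13.6%, in the same order. Of 9 in the table, 7 were tested; 3 fell and 0 rose at the 4-cell stage, 2 fell at the early 8-cell stage (1 of 8 tested without early 8-cell control replicate 2), and 2 fell and 1 rose at the late 8-cell stage. Klf8 averaged 14.4 ± 4.35 CPM in 4-cell P300 siRNA embryos and 45.4 ± 16.6 CPM in controls (SD, n = 2 each; log2 -1.67 ± 0.38, adjusted p = 0.00703 by edgeR), a call lost without P300 siRNA replicate 2 (-1.38, adjusted p = 0.0693). Klf13 averaged 45.7 ± 0.750 CPM in late 8-cell P300 siRNA embryos and 133.7 ± 8.73 CPM in controls (-1.55 ± 0.31, adjusted p = 0.00152), and it rose with NaCr against P300 siRNA (1.07 ± 0.31, adjusted p = 0.0251), a call lost without any 1 of the 4 NaCr and P300 siRNA libraries (0.99 to 1.15). Of 7 tested Sp factors, zinc finger proteins that bind the same GC boxes, 1 rose and 2 fell at the 4-cell stage, 1 rose and 0 fell at the early 8-cell stage (0 and 0 without early 8-cell control replicate 2), and 3 rose and 1 fell at the late 8-cell stage. Without 1 of the 4 libraries the late 8-cell rises numbered 0 or 1. Sp3 was higher in late 8-cell P300 siRNA embryos (0.83 ± 0.22, adjusted p = 0.0106) and fell with I1394G (-0.81 ± 0.22, adjusted p = 0.0271) and NaCr (-0.84 ± 0.23, adjusted p = 0.0176). All 3 calls of Sp3 were lost without P300 siRNA replicate 1 (0.55, -0.52 and -0.55), the first also without either control (0.77 and 0.88), and the others without either library of their rescue group.

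Genes that Klf2, Klf4 and Klf5 are known to act on in mouse embryonic stem cells were taken as a list. Of these 12, all tested, 5 fell and 2 rose in P300 siRNA embryos at the 4-cell stage, 7 fell and 1 rose at the early 8-cell stage, and 7 fell and 0 rose at the late 8-cell stage. The early 8-cell counts were 4 and 0 without early 8-cell control replicate 2. Over all genes 7.25%, 8.3% and 14.3% were called lower at these stages. The median log2 difference of the 12 was -0.97, -1.59 and -1.48. Tbx3, a T-box factor, averaged 6.77 ± 5.01 CPM in 4-cell P300 siRNA embryos and 57.3 ± 35.7 CPM in controls (-3.15 ± 0.48, adjusted p = 0.000468). Nanog, a homeobox pluripotency factor, averaged 76.9 ± 13.0 CPM in late 8-cell P300 siRNA embryos and 723 ± 33.7 CPM in controls (-3.23 ± 0.53, adjusted p = 0.000261). In each rescue group 7 of the 12 rose and 0 fell against P300 siRNA, and without 1 library these rises numbered 2 or 3 with I1394G and 4 or 5 with NaCr. Over all genes 6.19% were called higher with I1394G and 8.77% with NaCr. Klf5 and the genes of this list were not tested for a link.

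Of 8 trophectoderm genes, 3 fell and 1 rose at the 4-cell stage, 6 fell at the early 8-cell stage and 5 fell at the late 8-cell stage, with 0 rises at the later stages. Over all genes 7.25%, 8.3% and 14.3% were called lower at these stages. Without early 8-cell control replicate 2 there were also 6 falls at the early 8-cell stage. Tead4, a Hippo pathway factor of the trophectoderm, averaged 35.1 ± 8.39 CPM in 4-cell P300 siRNA embryos and 115.7 ± 16.5 CPM in controls (-1.73 ± 0.28, adjusted p = 0.000733). Gata3 averaged 7.91 ± 0.448 CPM in late 8-cell P300 siRNA embryos and 82.2 ± 1.27 CPM in controls (-3.38 ± 0.72, adjusted p = 0.00226). With I1394G 2 rose and with NaCr 3 rose against P300 siRNA, and without 1 library 1 or 2 did with I1394G and 2 or 3 with NaCr.

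Of 7 genes for corepressors, partners of the repressor members, 1 fell at the 4-cell stage, 2 at the early 8-cell stage (1 without early 8-cell control replicate 2) and 2 at the late 8-cell stage, with 0 rises. Over all genes 15%, 16.5% and 28% were called at these stages, so the 4-cell and late 8-cell counts lay near the share of all genes. Hdac1, a histone deacetylase, averaged 317 ± 6.85 CPM in late 8-cell P300 siRNA embryos and 555 ± 12.6 CPM in controls (-0.81 ± 0.16, adjusted p = 0.00168). Hdac1 was higher with I1394G (0.98 ± 0.16, adjusted p = 0.00162) and NaCr (1.11 ± 0.17, adjusted p = 0.000411) than with P300 siRNA alone. Of 4 genes for ubiquitin ligases that act on Kruppel-like factors, 1 rose and 1 fell at the late 8-cell stage, namely Fbxw7 (3.02 ± 0.59, adjusted p = 0.00126) and Btrc (-2.13 ± 0.23, adjusted p = 8.0e-06). Over all genes 13.6% were called higher and 14.3% lower there.

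Klf6 and Klf10 are induced early by stimuli, and Klf9 by glucocorticoid. Of 15 tested immediate early genes, 5 rose and 1 fell at the late 8-cell stage, and 3 rose and 1 fell at each of the stages before it from the 4-cell stage on (2 and 1 at the early 8-cell stage without early 8-cell control replicate 2). Over all genes 7.77%, 8.21% and 13.6% were called higher at the 4-cell, early and late 8-cell stages, and 14.3% lower at the last. Btg2, an antiproliferative gene, averaged 239 ± 36.0 CPM in late 8-cell P300 siRNA embryos and 25.8 ± 4.13 CPM in controls (3.21 ± 0.35, adjusted p = 8.9e-06). Of 4 glucocorticoid-induced genes 2 rose (1 without control replicate 2 or either P300 siRNA library) and 1 fell at the late 8-cell stage, with Tsc22d3 higher (3.48 ± 0.73, adjusted p = 0.00216) and Sgk1 lower (-1.75 ± 0.35, adjusted p = 0.00139).

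Genes named for earlier stages were taken as a pair of lists, and the maternal list was not checked for its level at earlier stages. Levels of the late 2-cell list at its own stage were uneven. Zfp352 averaged 456 CPM with P300 siRNA and 410 CPM in controls there, Tcstv3 276 and 228 CPM, and Zscan4d 127 and 138 CPM. Lower were, among others, Zscan4b at 4.39 and 4.55 CPM and Dux at 1.43 and 2.01 CPM. In late 8-cell P300 siRNA embryos 4 of 9 genes of the late 2-cell list rose and 0 fell. Of 10 maternal oocyte genes 2 rose and 0 fell, beside the 13.6% of all genes called higher there. Tcstv1, a gene of the late 2-cell list, averaged 0 CPM in both late 2-cell groups. It was among the 3 of that list called higher with early 8-cell control replicate 2 rebuilt from its FPKM column. In P300 siRNA embryos Zfp352 averaged 10.1, 18.1 and 62.9 CPM at the 4-cell, early and late 8-cell stages. Zscan4d averaged 0.884, 1.33 and 14.0 CPM, in the same order. Whether any of the late 8-cell rises is RNA kept from the late 2-cell stage was not tested. The late 2-cell rises rested on single libraries: there were 0 without P300 siRNA replicate 1, 2 without P300 siRNA replicate 2, 1 without control replicate 1 and 0 without control replicate 2. Zfp352 read 112.6 and 13.3 CPM in P300 siRNA libraries, against 3.18 and 1.27 CPM in controls (4.76 ± 1.31, adjusted p = 0.0124), and 2.56 without P300 siRNA replicate 1 (adjusted p = 0.175). Zscan4d read 27.9 and 0.123 CPM, against 0.154 and 0.386 CPM in controls (5.48 ± 1.70, adjusted p = 0.0232), and its sign changed without P300 siRNA replicate 1 (-1.07, adjusted p = 0.781). P300 siRNA replicate 1, the shallowest library, thus held nearly all the signal of Zscan4d and most of that of Zfp352. Zfp352 in P300 siRNA replicate 2 still lay above both controls. Bmp15, an oocyte growth factor, rose by 1.22 ± 0.42 (adjusted p = 0.0395), a call lost without any 1 of the 4 libraries (1.01 to 1.51), and fell in both rescue groups against P300 siRNA, by 2.09 ± 0.44 with I1394G (adjusted p = 0.00636) and by 1.62 ± 0.46 with NaCr (adjusted p = 0.0223). The I1394G call was lost without I1394G replicate 2 (-1.64), and the NaCr call without P300 siRNA replicate 1 (-1.41), NaCr replicate 1 (-1.98) or NaCr replicate 2 (-1.41). Klf17 passed in neither of those rescue comparisons, and this difference between the genes was not tested.

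Across the 10 group means of log2 CPM, the members had unlike patterns. Klf4 correlated with Klf5 at 0.78 and with Klf9 at 0.77, and Klf17 with Klf5 at -0.47 and with Klf4 at 0.07. Genes of like pattern were sought among 8226 genes with a mean of at least 10 CPM, and unnamed gene models (Gm and Rik symbols) were left out of the ranking. Among the named genes, the pattern most like that of Klf17 was shown by Fbxo47 (0.98), Pip5k1a (0.97) and Zp3 (0.96), and that of Klf4 by Myc (0.97), Tjp1 (0.96) and Ago2 (0.95). For Klf5 these were Atg2a (0.97), Riok3 (0.97) and Ppat (0.97), and for Klf2 Cox6b1 (0.99), Wdr45b (0.99) and Map1lc3b (0.99). For Klf9 they were Ccdc117 (0.96), Kcnk5 (0.91) and Bsdc1 (0.91), for Klf10 Bora (0.93), Naxe (0.92) and Zfp599 (0.92), and for Klf6 Rac1 (0.97), Rtn3 (0.96) and Slc2a1 (0.96). Klf3 was below 10 CPM on average and was not searched. The points are group means that share libraries and stages, and the coefficients are descriptions only.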

How the data were processed

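The 20 libraries were analysed as 2 in each of 10 groups taken from the sample titles. The authors deposited raw counts per gene and, in a second table, FPKM values. Per the submitters' processing notes the build was mm9 and the tools were HISAT2 2.2.1, Cufflinks 2.2, cutadapt 4.1 and bcl2fastq 2.20.0.422, with no roles or settings named; the counter, the annotation and the use of strand are not given in the sources used here, so reads of overlapping or antisense genes could not be told apart. Counts were fitted in R 4.3.3 with edgeR 4.0.16, using TMM scaling, the default low-count filter (16603 of 25208 genes kept) and 1 coefficient per group over the 20 libraries (residual degrees of freedom 10, prior 7.98). Each contrast used the two-sided quasi-likelihood F test with Benjamini-Hochberg adjustment over all genes tested and a call under 0.05. SE is the size of a log2 fold change over the square root of F. CPM was computed here from the scaled counts. Members of the family are all reported; from each gene list at most 2 called genes per comparison with at least 5 CPM in 1 group were eligible to be named. Members, lists and tests were chosen with earlier results of these data known. The script was tested on simulated data. Alternatives were DESeq2 1.42.0, its size factors, no low-count filter, limma 3.58.1 on log2(FPKM + 1) and log2(FPKM + 0.1) and without the doubtful column, only the libraries compared, a replicate block, and leaving out each library. Rebuilding 1 library from its FPKM column, and both kinds of alternative for the gene lists, were added after seeing the data. Promoter sequences are from RefSeq, build GRCm38.p6, and no coordinates of the deposited build were used.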

Additional observations from a re-analysis of the deposited data

Results flagged for a closer look

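The effect of P300 siRNA differed between stages for 4 of the 8 genes, by tests of the difference itself in edgeR. From the late 2-cell to the 4-cell stage the siRNA difference changed by -2.52 on the log2 scale for Klf4, -1.38 for Klf5 and -1.47 for Klf9. From the early to the late 8-cell stage it changed by 2.63 for Klf17. The joint test over the 4 stages gave adjusted p values of 0.0176 for Klf17, 0.0017 for Klf4, 0.00149 for Klf5 and 0.0137 for Klf9. The Klf17 call of the joint test was lost without late 8-cell control replicate 2 (adjusted p = 0.127) or late 8-cell P300 siRNA replicate 1 (adjusted p = 0.0857), and the Klf9 call without late 2-cell control replicate 2 (adjusted p = 0.0502). With early 8-cell control replicate 2 rebuilt from its FPKM column the joint test gave 0.0713 for Klf5 and 0.155 for Klf9. Causes were not tested. The groups of 2 are too small for a check of single outlying libraries.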

How the results depend on the processing

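Counts of the 8 genes that passed changed as follows, with the count of the report in parentheses. Where shares of all genes called are added, the share of the report is in parentheses too. No share is added for counts without the doubtful FPKM column or with 1 library left out, given further on. The share of all genes called changed in those fits too, so their counts are not set against the shares of the report. DESeq2 size factors in edgeR gave 1 (2) for I1394G against control and 2 (1) for the siRNA effect at the late minus the early 8-cell stage, and the DESeq2 Wald test gave 2 (1) for that effect. Of all genes, 2.98% (3.17%), 5.96% (6.63%) and 11.7% (6.63%) were called, in this order. No filter on low counts gave 5 (3) at the 4-cell stage, 6 (3) at the late 8-cell stage, 2 (0) for early 8-cell against 4-cell controls and 1 (0) for the siRNA effect at the early 8-cell minus the 4-cell stage. Of all genes, 14.4% (15%), 23.2% (28%), 3.14% (1.13%) and 1.34% (0%) were called without the filter, in this order. limma on log2(FPKM + 1) and on log2(FPKM + 0.1) gave equal counts: 0 (4) at the early 8-cell stage, 2 (5) on average, 1 (2) for I1394G and 0 (4) for NaCr against P300 siRNA, 1 (2) for I1394G and 0 (2) for NaCr against control, 1 (3) for the siRNA effect at the 4-cell minus the late 2-cell stage and 2 (4) jointly. Of all genes, limma on log2(FPKM + 1) called 1.14% (16.5%) at the early 8-cell stage and 25.8% (30.7%) on average. It called 12.9% (10.8%) for I1394G and 20.9% (15.3%) for NaCr against P300 siRNA, and 2.28% (3.17%) and 1.02% (1.57%) against control. For the siRNA effect it called 1.52% (4.28%) at the 4-cell minus the late 2-cell stage and 10.1% (16.3%) jointly. Without the doubtful FPKM column limma gave 2 (4) at the early 8-cell stage, 3 (5) on average and 1 (2) for NaCr against control. Fitting only the libraries of the groups compared gave 0 (3) at the 4-cell stage, 6 (2) for I1394G against control and 1 (3) for the siRNA effect at the 4-cell minus the late 2-cell stage. Of all genes that fit called 0.464% (15%), 29.4% (3.17%) and 0.282% (4.28%) in these comparisons, in order. With early 8-cell control replicate 2 rebuilt from its FPKM column, an alternative chosen after seeing the data, there were 0 (4) at the early 8-cell stage, 3 (5) on average, 1 (2) for I1394G and 2 (4) for NaCr against P300 siRNA, 1 (2) for I1394G and 0 (2) for NaCr against control, 1 (3) for the siRNA effect at the 4-cell minus the late 2-cell stage and 2 (4) jointly. Of all genes the rebuilt column gave 0.271% (16.5%) at the early 8-cell stage and 19.9% (30.7%) on average. It gave 5.19% (10.8%) for I1394G and 9.83% (15.3%) for NaCr against P300 siRNA, and 1.22% (3.17%) and 0.62% (1.57%) against control. For the siRNA effect it gave 0.729% (4.28%) at the 4-cell minus the late 2-cell stage and 5.51% (16.3%) jointly. The cause of these changes was not tested.

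Replicate numbers were not used as pairs in the report, and the labels give the numbers no meaning. Over genes, the difference of replicate 1 and 2 correlated between the groups compared at -0.04 to 0.14. With a single difference per group these values cannot show whether libraries of the same number shared a culture or batch. With the replicate block NaCr against control gave 1 (2), where 1.61% (1.57%) of all genes were called. In that fit Klf10 passed at the late 8-cell stage (adjusted p = 0.0488), and Klf9 missed the threshold for 4-cell against late 2-cell controls (0.62, adjusted p = 0.0536).

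Leaving out 1 library gave 3 in every case at the 4-cell stage, 3 to 4 at the early 8-cell stage, 2 to 4 at the late 8-cell stage, 4 to 6 on average, 1 to 2 for I1394G and 1 to 3 for NaCr against P300 siRNA, and 0 to 1 for each against control. It gave 4 to 6 for 4-cell against late 2-cell controls, 0 to 1 for early 8-cell against 4-cell controls and 1 to 5 for late against early 8-cell controls. For the siRNA effect it gave 1 to 3 at the 4-cell minus the late 2-cell stage, 0 to 2 at the late minus the early 8-cell stage and 3 to 5 jointly.

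Values that changed sign had no call in the report. For the siRNA effect at the late minus the early 8-cell stage, Klf2 gave 0.13 with DESeq2 size factors, 0.11 with the DESeq2 Wald test, 0.0076 with only the libraries compared and 0.078 with the replicate block, and Klf2 gave -0.012 for early 8-cell against 4-cell controls with only the libraries compared.

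The limma fits on FPKM (with a pseudocount of 1, of 0.1, or of 1 and the doubtful column out) and the rebuilt column changed signs too. P300 siRNA against control in early 8-cell embryos gave Klf3 at 0.30 (pseudocount 1), 0.50 (pseudocount 0.1) and 0.33 (rebuilt). P300 siRNA against control in late 8-cell embryos gave Klf9 at 0.19 (pseudocount 1), 0.21 (pseudocount 0.1) and 0.19 (doubtful column out). P300 siRNA against control on average gave Klf3 at 0.041 (pseudocount 1) and 0.068 (pseudocount 0.1). I1394G against P300 siRNA gave Klf17 at -0.015 (pseudocount 1), -0.014 (pseudocount 0.1) and -0.015 (doubtful column out). NaCr against P300 siRNA gave Klf9 at -0.0099 (pseudocount 1), -0.0091 (pseudocount 0.1) and -0.0099 (doubtful column out). Early 8-cell against 4-cell controls gave Klf17 at 0.23 (pseudocount 1), 0.23 (pseudocount 0.1) and 0.16 (doubtful column out), Klf2 at -0.79 (pseudocount 1), -0.82 (pseudocount 0.1), -0.64 (doubtful column out) and -0.86 (rebuilt), Klf4 at -0.50 (pseudocount 1), -0.55 (pseudocount 0.1) and -0.44 (rebuilt), Klf5 at -0.46 (pseudocount 1), -0.47 (pseudocount 0.1) and -0.30 (rebuilt). Late against early 8-cell controls gave Klf9 at 0.28 (pseudocount 1), 0.32 (pseudocount 0.1) and 0.32 (rebuilt). The siRNA effect in early 8-cell minus 4-cell embryos gave Klf17 at -0.23 (pseudocount 1), -0.23 (pseudocount 0.1), -0.15 (doubtful column out) and -0.028 (rebuilt), Klf2 at 0.71 (pseudocount 1), 0.74 (pseudocount 0.1), 0.55 (doubtful column out) and 0.69 (rebuilt), Klf4 at 0.75 (pseudocount 1), 0.85 (pseudocount 0.1), 0.18 (doubtful column out) and 0.69 (rebuilt), Klf5 at 0.42 (pseudocount 1), 0.44 (pseudocount 0.1) and 0.20 (rebuilt), Klf9 at 0.84 (pseudocount 1), 0.92 (pseudocount 0.1), 0.39 (doubtful column out) and 0.83 (rebuilt). The siRNA effect in late minus early 8-cell embryos gave Klf10 at -0.19 (pseudocount 1) and -0.22 (pseudocount 0.1), Klf4 at -0.042 (rebuilt).

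Leaving out 1 library changed the sign of these values, given as lowest to highest. P300 siRNA against control in late 2-cell embryos gave Klf2 -0.96 to 0.47, Klf10 -0.090 to 0.51, Klf9 -0.036 to 0.31 and Klf17 -0.23 to 0.033. P300 siRNA against control in 4-cell embryos gave Klf10 -1.16 to 0.74, Klf17 -1.24 to 0.35 and Klf6 -0.23 to 2.89. P300 siRNA against control in early 8-cell embryos gave Klf6 -1.5 to 2.5 and Klf3 -1.23 to 0.23. I1394G against P300 siRNA gave Klf17 -0.029 to 0.81. NaCr against P300 siRNA gave Klf17 -0.81 to 0.22. I1394G against NaCr gave Klf2 -0.053 to 0.21. Early 8-cell against 4-cell controls gave Klf17 -0.84 to 0.72, Klf2 -0.61 to 0.44, Klf9 -0.51 to 0.26 and Klf6 -1.23 to 2.70. Late against early 8-cell controls gave Klf5 -0.024 to 0.31. The siRNA effect in 4-cell minus late 2-cell embryos gave Klf10 -1.33 to 0.58, Klf17 -1.13 to 0.44, Klf6 -0.44 to 2.68 and Klf2 -1.35 to 0.12. The siRNA effect in early 8-cell minus 4-cell embryos gave Klf9 -0.42 to 0.35, Klf17 -0.78 to 0.80, Klf6 -3.37 to 0.63, Klf2 -0.67 to 0.50, Klf4 -0.69 to 0.15 and Klf3 -0.32 to 1.16. The siRNA effect in late minus early 8-cell embryos gave Klf2 -0.75 to 0.49, Klf6 -1.5 to 2.83 and Klf3 -0.86 to 0.61.

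Counts of list genes without 1 library, an alternative added after seeing the data, ran as follows at the 4-cell, early and late 8-cell stages. Falls of the other Kruppel-like factor genes ran 1 to 3, 1 to 2 and 1 to 2, and of the corepressors 0 to 2, 1 to 3 and 1 to 2. Rises of the immediate early genes ran 2 to 4, 2 to 3 and 4 to 5. Falls of the stem cell targets ran 3 to 4, 4 to 5 and 7 to 8, and of the trophectoderm genes 2 to 4, 5 to 6 and 5. Sp factors had 0 to 1 rises and 0 to 1 falls at each stage. With the rebuilt column 0 genes of these lists passed at the early 8-cell stage, and Tead4 at the 4-cell stage (adjusted p = 0.0557), Sgk1 (0.0812) and Bmp15 (0.0800) at the late 8-cell stage and Klf13 with NaCr (0.0829) missed the threshold.

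Groups of 2 libraries set the limit here, and a gene without a call is not shown to be alike in both groups.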
